A study of Mus musculus with 12 samples.

Results

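The genes described here encode the enzymes and core subunits of 3 repressive chromatin systems: Ezh1, Ezh2, Eed and Suz12 of Polycomb repressive complex 2, the DNA methyltransferases Dnmt1, Dnmt3a and Dnmt3b, and the histone demethylase Kdm1a with the deacetylases Hdac1 and Hdac2. They were chosen by symbol, as 10 of the 32289 features counted, and all 10 were found. The cells came from superior mesenteric ganglia (SMG) of mice of the 129+Ter/SvJcl strain, and droplet scRNA-seq counted their RNA molecules by unique molecular identifiers (UMIs). A wild-type (WT) mouse and 10 Th-MYCN+/- mice were 3 weeks old, and 1 further Th-MYCN+/- mouse, whose ganglion was taken because it held a visible tumor, was 6 weeks old. Th-MYCN mice carry a human MYCN gene driven by the tyrosine hydroxylase promoter, which is active in sympathetic cells, and develop neuroblastoma. Each mouse gave 1 library, so WT and 6-week values have no replicate error.

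Polycomb repressive complex 2 places methyl groups on lysine 27 of histone H3, a mark of silenced genes. Ezh2 or its paralog Ezh1 is the catalytic subunit, Eed binds the mark already placed, and Suz12 holds the complex together. Dnmt1 copies DNA methylation onto newly made strands after replication, while Dnmt3a and Dnmt3b place it on unmethylated DNA. Kdm1a, also called LSD1, removes methyl groups from lysine 4 of histone H3, and works with Hdac1 and Hdac2, which remove acetyl groups, in corepressor complexes. In neuroblastoma, inhibitors of EZH2, LSD1 and the deacetylases have been studied.

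The 12 libraries held between 1147772 (WT) and 6388766 UMIs, and 11428 cells were kept. Clusters were named from marker lists, with the 10 genes, related chromatin genes and the transgene left out of the genes that made the clusters. The 3 large classes were neuroblast-like with 3028, Schwann-like with 2871 and ganglion-like with 2459 cells. The smaller classes of endothelial-like (511), macrophage-like (236), mural-like (168), fibroblast-like (141) and lymphocyte-like (43) cells came after them, and 1971 cells stayed unnamed. None of the 10 genes helped to form or name a class, but genes that move with them took part in the clustering. In neuroblast-like cells, the human MYCN transgene stood at 321 ± 157 CPM (SD, n = 10), against 2.19 ± 2.89 in ganglion-like cells, and it had 0 UMIs in every class of the WT library. Mouse 2 of the 3-week Th-MYCN+/- group stood apart: 34.5% of its UMIs lay in cells, against 61.1% to 87.0% in the others, and it gave 1247 ganglion-like, 28 neuroblast-like and 4 Schwann-like cells. Its 28 neuroblast-like cells held 20335 UMIs, so that 1 UMI there equals about 49.2 CPM. Of its ganglion-like UMIs, 91.3% came from a cluster whose cells were 86.0% its own, while in the other 9 mice another cluster held 59.5% to 89.8% of them. Libraries shared 81 barcodes in pairs, against 80.5 expected for barcodes drawn at random.

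Levels are UMIs of a gene per 1000000 UMIs of all cells of that class in a mouse (CPM). They are compared between classes for 1 gene and not between genes, since capture at the 3′ end differs from gene to gene. Comparisons between classes were made within 3-week Th-MYCN+/- mice, on UMIs summed per mouse and class, with edgeR's quasi-likelihood test, the mouse as a block and an FDR threshold of 0.05. Log2 fold changes are given with their standard errors. The plot of levels by class shows every mouse.

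**Figure D1:**
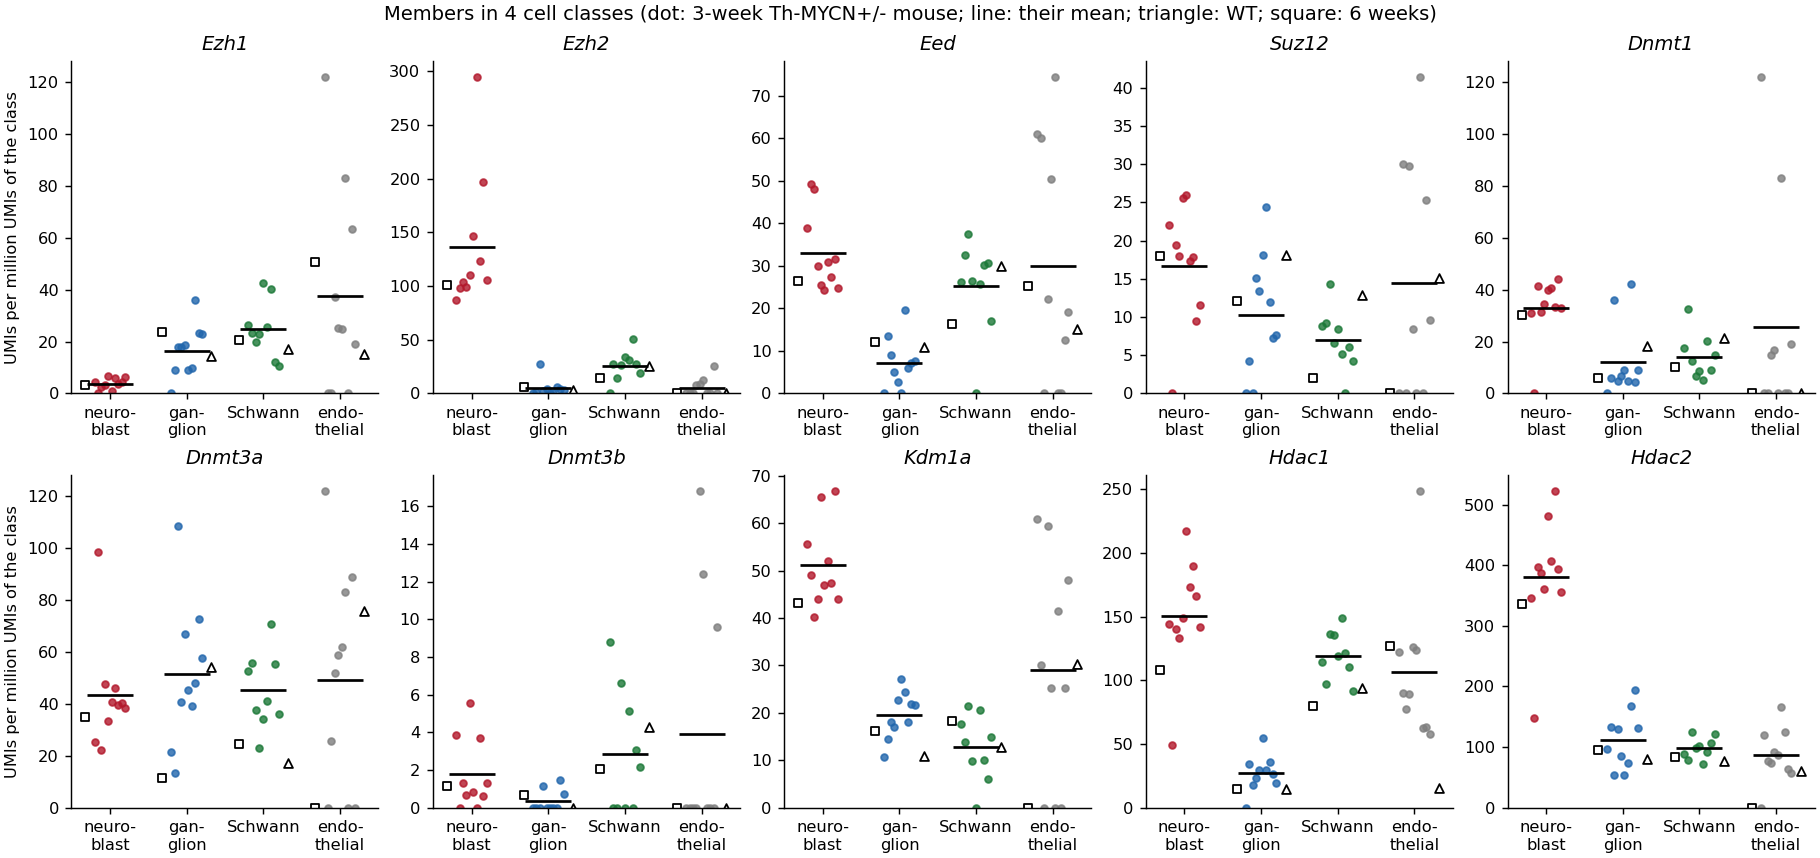
Levels in CPM (y axis) of each of the 10 genes in 4 cell classes (x axis). Dots are the 3-week Th-MYCN+/- mice, lines their means, triangles the WT mouse (not drawn for its 38 neuroblast-like cells) and squares the 6-week mouse, and the means of Ezh2, Kdm1a and Hdac2 are highest in neuroblast-like cells.

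Among the Polycomb genes, Ezh2 and Eed were higher in neuroblast-like than in ganglion-like cells of every mouse. Ezh2 (chr6:47530139-47595341, minus strand, GRCm38) ranged from 87.3 through a median of 108 to 295 CPM over the 10 mice in neuroblast-like cells, with a mean of 137 ± 64.1 (SD, n = 10). In ganglion-like cells it ranged from 0 through a median of 2.74 to 27.1 CPM, with a mean of 4.86 ± 8.08 (SD, n = 10), from 24 UMIs in all and 0 UMIs in 3 mice. The groups did not overlap, and the log2 fold change was 5.04 ± 0.31 (adjusted p = 4.1e-11). The ganglion-like level was below the 53.8 ± 33.8 CPM of Ezh2 in empty droplets of the same mice, so that these UMIs cannot be told apart from free RNA.

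Eed (chr7:89954654-89980983, minus strand), the subunit that reads the mark, ranged from 24.3 through 30.4 to 49.2 CPM in neuroblast-like cells and from 0 through 6.64 to 19.5 CPM in ganglion-like cells. The highest value was 1 UMI in mouse 2, and the ranges did not overlap (log2 fold change 2.13 ± 0.29, adjusted p = 1.6e-06). Suz12 (chr11:79993106-80034123, plus strand) had 16.7 ± 7.90 CPM in neuroblast-like and 10.2 ± 7.88 CPM in ganglion-like cells (n = 10 each). It was higher in 8 of 10 mice, but did not pass the test (0.56 ± 0.28, adjusted p = 0.088), and passed it without the block (0.81, adjusted p = 0.019), without mouse 7 (0.71, adjusted p = 0.041) and with clusters from log-normalized counts (0.78, adjusted p = 0.0084).

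Ezh1 (chr11:101191115-101226463, minus strand) went the other way. Its level ranged from 0 through 4.00 to 6.67 CPM in neuroblast-like cells and from 0 through 17.9 to 36.1 CPM in ganglion-like cells, and it was lower in neuroblast-like cells of 9 of 10 mice. Its 55 and 137 UMIs were under the filter on low counts, so that it was not tested with the others. Without that filter, its log2 fold change was -1.97 ± 0.34 (adjusted p = 3.9e-08), in a fit that gave smaller p-values for well-counted genes too, such as 2.5e-56 for Ezh2.

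The balance of the catalytic paralogs is given as a share of their UMIs, to be compared between classes only. Of all UMIs of Ezh2 and Ezh1 together, Ezh2 had 96.8% in neuroblast-like cells, with a range of 94.3% to 100% over 10 mice. It had 14.9% in ganglion-like cells (0% to 60% over the 9 mice with any UMI of either) and 52.9% in Schwann-like cells (0% to 69.2% over 9 mice). These shares rest on 1638 and 55 UMIs of Ezh2 and Ezh1 in neuroblast-like cells, but on 24 and 137 in ganglion-like and 55 and 49 in Schwann-like cells.

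Of the DNA methyltransferases, Dnmt1 was higher in neuroblast-like cells and Dnmt3a did not pass the test. Dnmt1 (chr9:20907209-20959888, minus strand) ranged from 31.2 to 44.1 CPM in neuroblast-like cells of 9 mice and had 0 UMIs in those of mouse 2, where 0 of 20335 UMIs allows up to 148 CPM. In ganglion-like cells it ranged from 0 through 6.30 to 42.1 CPM, so that the groups overlapped, and it was higher in neuroblast-like cells of 8 of 10 mice. The log2 fold change was 1.93 ± 0.34 (adjusted p = 4.5e-05), and 2.00 ± 0.35 (adjusted p = 6.8e-05) without mouse 2. When every cell was thinned to 500 UMIs, so that all cells weighed the same, the level of Dnmt1 in neuroblast-like cells was 31.6 CPM and that in ganglion-like cells 45.3 CPM, which turned the order, with too few UMIs left for a test.

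Dnmt3a (chr12:3806007-3914443, plus strand), which places new methylation, ranged from 22.0 through 39.9 to 98.4 CPM in neuroblast-like cells and from 13.4 through 46.7 to 108 CPM in ganglion-like cells. The ranges overlapped almost fully. Its log2 fold change was -0.48 ± 0.24, with a 95% interval of -0.98 to 0.02 (adjusted p = 0.081). Dnmt3b (chr2:153649450-153687730, plus strand) was sparse, with 27 UMIs in neuroblast-like and 5 in ganglion-like cells of all 10 mice, and was not tested. Dnmt3a held 94.6% of the UMIs of both in neuroblast-like, 98.6% in ganglion-like and 94.3% in Schwann-like cells.

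Kdm1a, Hdac1 and Hdac2 were higher in neuroblast-like than in ganglion-like cells of 10 of 10 mice. Kdm1a (chr4:136550540-136602723, minus strand) ranged from 40.2 through 48.3 to 66.8 CPM against 10.8 through 19.8 to 27.2 CPM, without overlap (1.32 ± 0.19, adjusted p = 3.7e-06). Luzp1, on the opposite strand, covers the 3′ end of Kdm1a. The strand setting of the counting was not stated, so the count of Kdm1a is uncertain.

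Hdac1 (chr4:129516104-129542713, minus strand) ranged from 49.2 through 146 to 217 CPM in neuroblast-like cells and from 0 through 27.7 to 54.4 CPM in ganglion-like cells. The only overlap came from mouse 2, whose 49.2 CPM was 1 UMI, while the other 9 mice stood at 133 CPM or more. The log2 fold change was 2.47 ± 0.22 (adjusted p = 4.7e-09). Hdac2 (chr10:36974544-37001889, plus strand) ranged from 148 through 391 to 523 CPM against 54.2 through 114 to 195 CPM (1.73 ± 0.22, adjusted p = 5.3e-07). Its lowest neuroblast-like value, again that of mouse 2, came from 3 UMIs, and the others were at 346 CPM or more.

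In all, 6 of the 8 genes tested were higher in neuroblast-like cells and 0 were lower. Of all 7193 genes tested in this comparison, 33.8% were higher and 33.7% were lower. The filter shapes these counts, since it kept Ezh2, Dnmt1 and Eed through their neuroblast-like UMIs and left out Ezh1, which was lower in 9 of 10 mice. The median log2 fold change was 1.83 over the 8 genes and 0.03 over all genes tested. Without mouse 2, the same 6 genes passed, with log2 fold changes of 5.07 for Ezh2, 2.23 for Eed, 1.36 for Kdm1a, 2.63 for Hdac1 and 1.88 for Hdac2 beside that of Dnmt1 above.

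Free RNA was measured in empty droplets of the same mice. Its level was 21.1 ± 11.3 CPM for Eed, 25.7 ± 11.2 for Kdm1a, 94.5 ± 46.9 for Hdac1 and 247.5 ± 81.1 for Hdac2 (n = 10), above the mean of each gene in ganglion-like cells. For Dnmt1 it was 11.4 ± 5.07 CPM, close to the ganglion-like mean of 12.3 CPM. In Schwann-like cells, the means of Ezh2 (25.6 CPM), Kdm1a (12.7 CPM) and Hdac2 (98.2 CPM) also lay below the level in empty droplets. The share of free RNA among the UMIs of a cell was not measured, so how much of these levels was free RNA is not known.

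For an alternative, 10% of each sum was taken out as free RNA, a share that was set and not measured. The 6 genes still passed as higher in neuroblast-like than in ganglion-like cells. Within a mouse, this subtraction takes the same CPM of a gene from both classes, which widens the ratio of a gene that differs. It could therefore not turn the order of levels, and does not show how free RNA bears on it. Ezh2 then had a log2 fold change of 6.72 (adjusted p = 1.4e-09), the largest value among its alternatives, whose lowest was 4.82.

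**Figure D2:**
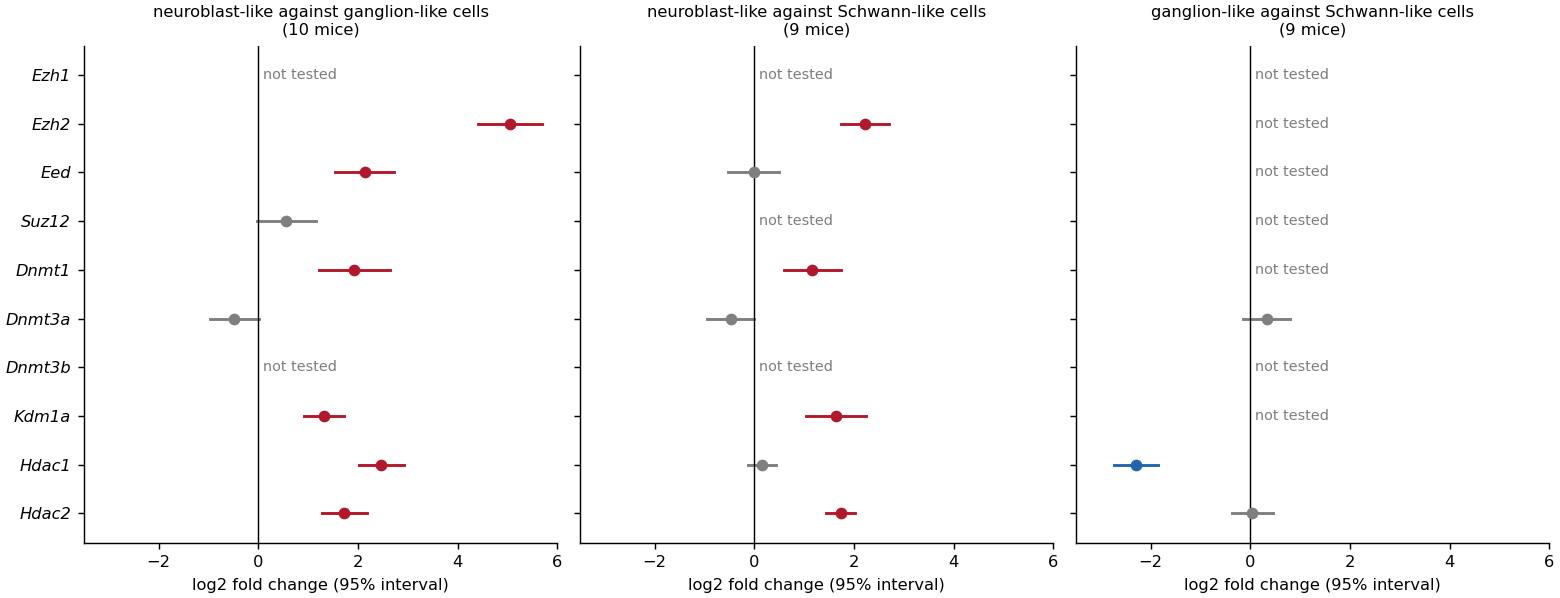
Log2 fold changes (x axis, points) with 95% intervals (lines) of the 10 genes (y axis) in 3 comparisons of cell classes within 3-week Th-MYCN+/- mice. Red points passed the edgeR test as higher in the class named first, blue as lower, grey did not pass, "not tested" marks genes under the filter on low counts, and Ezh2 lies farthest from 0, at 5.04 in neuroblast-like against ganglion-like cells.

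Against Schwann-like cells, the glia of the ganglion, Ezh2, Hdac2, Kdm1a and Dnmt1 were higher in neuroblast-like cells. The comparison covered 9 mice, since mouse 2 had 4 Schwann-like cells. Of 7 genes tested, 4 were higher in neuroblast-like cells and 0 lower, where 37.1% of all 6189 genes tested were higher and 33.3% lower. The filter shapes these counts too, since it left out Suz12, Dnmt3b and Ezh1, which was lower in neuroblast-like cells of 9 of 9 mice. It kept Ezh2, Dnmt1 and Kdm1a, with 55, 32 and 34 Schwann-like UMIs, through their neuroblast-like UMIs. Ezh2 ranged from 0 through 27.6 to 50.5 CPM in Schwann-like cells, below every neuroblast-like value (2.22 ± 0.23, adjusted p = 1.3e-07).

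Hdac2 ranged from 71.9 through 98.9 to 125 CPM in Schwann-like cells, again below every neuroblast-like value of these mice (1.74 ± 0.14, adjusted p = 5.1e-09). Kdm1a ranged from 0 through 13.9 to 21.5 CPM (1.64 ± 0.29, adjusted p = 7.1e-05), and Dnmt1 from 5.14 through 12.5 to 32.5 CPM (1.17 ± 0.27, adjusted p = 0.00095). Both were higher in neuroblast-like cells of 9 of 9 mice.

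Hdac1 and Eed did not pass the test between neuroblast-like and Schwann-like cells. Hdac1 ranged from 91.6 through 119 to 149 CPM in Schwann-like cells, with a log2 fold change of 0.16 ± 0.13 and a 95% interval of -0.12 to 0.44 (adjusted p = 0.30). Without the filter on low counts, which shifted all genes by 0.34, Hdac1 passed (0.50, adjusted p = 0.0095), and with cells thinned to 500 UMIs its value was -0.05. Eed had 25.2 ± 10.99 CPM (n = 9) in Schwann-like cells (-0.01 ± 0.24, 95% interval -0.52 to 0.51, adjusted p = 0.98).

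Dnmt3a had 45.1 ± 14.5 CPM (n = 9) in Schwann-like cells and a log2 fold change of -0.47 ± 0.22 (adjusted p = 0.063). Its ranges overlapped, and it was higher in neuroblast-like cells of 5 of 9 mice and lower in 4. It passed as lower in neuroblast-like cells without the block (-0.48, adjusted p = 0.033) and without mouse 4, 5 or 10 (adjusted p of 0.043, 0.034 and 0.044). Without the filter on low counts it stood at -0.13 ± 0.24 (adjusted p = 0.71 in edgeR's test). Ezh1, not tested for its low counts, was lower in neuroblast-like cells of 9 of 9 mice without overlap, at 0.810 to 6.67 against 10.7 to 42.5 CPM (-2.23 ± 0.37, adjusted p = 6.7e-09 without the filter).

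Between ganglion-like and Schwann-like cells, 3 of the 10 genes had enough UMIs to be tested. Of these, 1 was lower in ganglion-like cells and 0 were higher, where 32.7% of the 3370 genes tested were lower and 39.2% higher. Hdac1 was that gene, at 26.3 ± 14.6 CPM in ganglion-like against 119 ± 18.6 CPM in Schwann-like cells (n = 9 each), without overlap (-2.29 ± 0.21, adjusted p = 2.7e-08). Hdac2 (0.04 ± 0.19, 95% interval -0.36 to 0.45, adjusted p = 0.84) and Dnmt3a (0.33 ± 0.22, 95% interval -0.14 to 0.81, adjusted p = 0.19) did not pass. Without the filter on low counts, Ezh2 (-2.36 ± 0.42, adjusted p = 1.6e-07) and Eed (-1.96 ± 0.38, adjusted p = 1.3e-06) were lower too, each in 8 mice and higher in 0. These values rest on 21 against 55 UMIs of Ezh2 and 37 against 65 of Eed. That fit called 6841 genes, against 2423 with the filter, and the Ezh2 levels of both classes lay below that in empty droplets.

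The levels of the paralogs Hdac1 and Hdac2 over the classes are set side by side here, and the difference between their patterns was not tested. Hdac1 stood at 150 ± 44.1 CPM (n = 10) in neuroblast-like, 119 ± 18.6 CPM (n = 9) in Schwann-like and 27.1 ± 14.04 CPM (n = 10) in ganglion-like cells, and the first 2 did not pass the test against each other. Hdac2 stood at 380 ± 99.0 (n = 10), 98.2 ± 18.0 (n = 9) and 112 ± 47.5 CPM (n = 10), and the last 2 did not pass the test against each other. Of the UMIs of both, Hdac2 had 71.7% in neuroblast-like (68.9% to 75% over 10 mice), 83.0% in ganglion-like (50% to 100%) and 47.1% in Schwann-like cells (32.6% to 57% over 9 mice).

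The smaller classes held too few UMIs for tests. In endothelial-like cells of 10 mice, which held 16099 to 134583 UMIs per mouse, Hdac1 had 106 ± 56.5 CPM, Hdac2 86.2 ± 44.7 CPM and Dnmt3a 49.2 ± 42.2 CPM. Ezh2 had 5 UMIs there in all, and 0 in 6 of 10 mice. Macrophage-like cells of 9 mice had 24 UMIs of Hdac1, 21 of Dnmt3a, 16 of Hdac2 and 6 of Ezh2. In mural-like cells Hdac1 and Hdac2 had 14 UMIs each and Ezh2 had 1. Unnamed cells were mostly of 1 cluster with a median of 529.5 UMIs per cell. They had 103 ± 57.7 CPM of Ezh2 and 400 ± 123 CPM of Hdac2 (n = 10). Their human MYCN stood at 206 ± 87.2 CPM. In mouse 8, 1 unnamed cell held 48 UMIs of Hdac2. Without the single cells of many UMIs described below, Hdac2 had 375 ± 58.1 CPM in unnamed and 365 ± 85.1 CPM in neuroblast-like cells. Dnmt1 then had 50.3 ± 16.0 CPM in unnamed cells, above its 32.9 ± 12.3 CPM in neuroblast-like cells. These differences were not tested.

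Neuroblast-like cells were not uniform, and 1 of their clusters was led by cell cycle genes. Dividing cells were therefore set against others within the class. Each cell with at least 1000 UMIs was thinned to 1000, and its UMIs of 97 genes of published S and G2M lists, which hold none of the 10 genes, were summed. Cells with 22 or more such UMIs (885 of 2625) were called cycle-gene-rich and cells with 9 or fewer (900) cycle-gene-poor. Both groups are cuts of a continuous score rather than kinds of cell, and 323 cells lay at a limit or 1 UMI inward of it. Median depth was 4739 UMIs per cell in the rich and 4051.5 in the poor range, and 9 mice had both.

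Of the 7 genes tested between the ranges, 4 were higher in cycle-gene-rich cells and 0 lower, where 16.7% of the 5272 genes tested were higher and 17.3% lower. The filter shapes these counts as well. It kept Dnmt1 (199 against 76 UMIs) and Eed (184 against 96) through their UMIs in rich cells. It left out Ezh1, which was lower in rich cells of 7 of 9 mice, and Suz12, which was higher in 8 of 9. Dnmt1, the copying methyltransferase, ranged from 34.4 through a median of 43.8 to 63.7 CPM in rich and from 4.49 through 13.4 to 39.6 CPM in poor cells. It was higher in rich cells of 9 of 9 mice (1.33 ± 0.26, adjusted p = 0.00066).

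Ezh2 ranged from 113 through 173 to 288 CPM in rich cells. In poor cells it ranged from 17.9 to 98.7 CPM in 8 mice and was 581 CPM in mouse 7, the only mouse in which poor cells were higher. The log2 fold change was 1.11 ± 0.29 (adjusted p = 0.0070). It was 0.72 without the block (adjusted p = 0.23), and 1.47 ± 0.19 (adjusted p = 9.7e-06) when single cells with 20 or more UMIs of a gene, described below, were left out.

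Eed and Hdac1 were also higher in rich cells of 9 of 9 mice. Eed had 41.5 ± 12.4 against 23.7 ± 7.04 CPM (0.86 ± 0.19, adjusted p = 0.0019), and Hdac1 had 187 ± 36.7 against 116 ± 26.5 CPM (0.70 ± 0.14, adjusted p = 0.00085). Hdac2 (0.12 ± 0.09, 95% interval -0.08 to 0.31, adjusted p = 0.36), Dnmt3a (0.18 ± 0.21, adjusted p = 0.54) and Kdm1a (-0.24 ± 0.32, adjusted p = 0.59) did not pass. Without the filter on low counts, Suz12 was higher in rich cells (1.09 ± 0.31, adjusted p = 0.0037) and Ezh1 lower (-1.73 ± 0.58, adjusted p = 0.020). These values rest on 101 against 46 UMIs of Suz12 and 9 against 35 of Ezh1.

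Ganglion markers moved with the ranges too. The summed level of 19 ganglion markers lay between 3342 and 4375 CPM in rich and between 4288 and 19205 CPM in poor cells over the 9 mice, with 0 of the 19 absent from either. Their part in the differences was not tested.

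**Figure D3:**
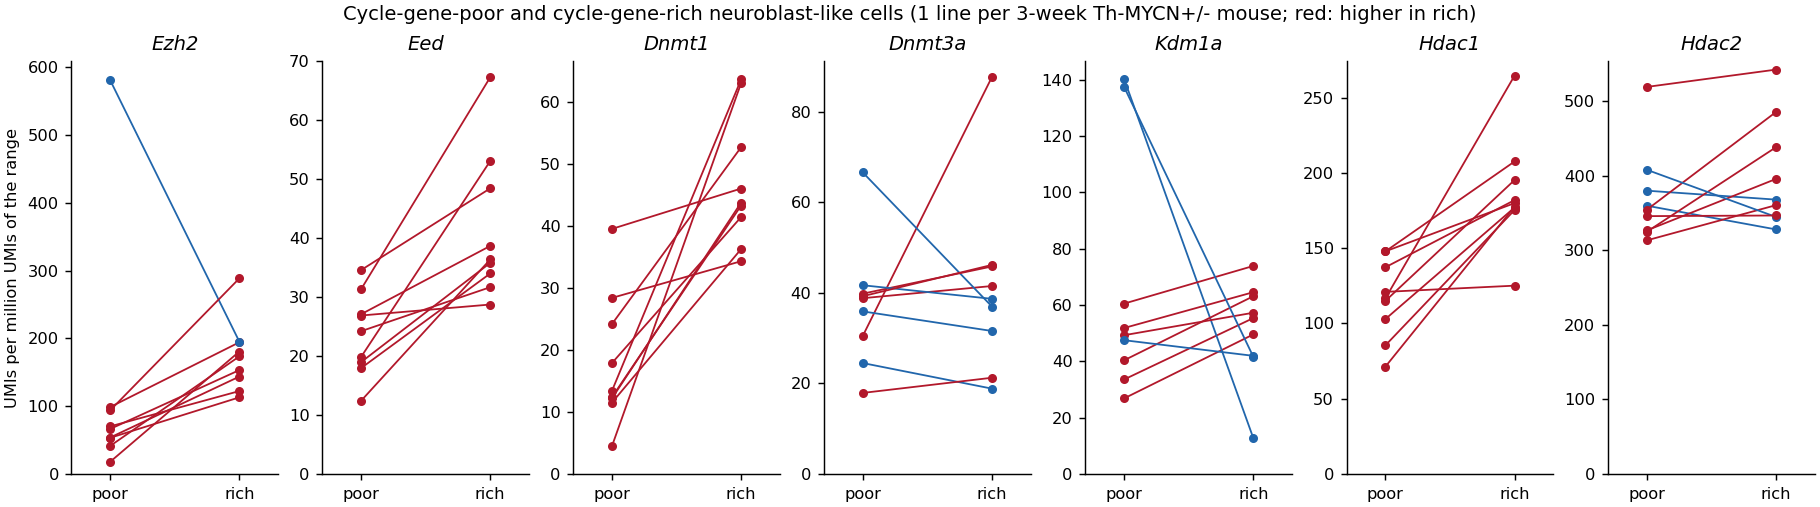
Levels in CPM (y axis) of 7 genes in cycle-gene-poor and cycle-gene-rich neuroblast-like cells (x axis), with 1 line for each of 9 3-week Th-MYCN+/- mice, red where the rich range is higher. Eed, Dnmt1 and Hdac1 are higher in the rich range of 9 of 9 mice, and Ezh2 of 8 of 9, with mouse 7 at 581 CPM in its poor range.

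Within the cycle-gene-rich range, cells with more S than G2M UMIs were few (65 against 808 cells). Over 6 mice, 0 of 3 genes tested passed, where 1.72% of the 2730 genes tested were higher and 2.49% lower in edgeR's test. Ezh2 had a log2 fold change of 0.77 ± 0.34 (unadjusted p = 0.035 in edgeR's model, adjusted p = 0.29), which was 0.01 ± 0.28 without the cells with 20 or more UMIs of a gene. Hdac2 (0.32 ± 0.18, adjusted p = 0.44) and Hdac1 (0.31 ± 0.27, adjusted p = 0.67) did not pass either.

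A further split of the rich range at its median S share of 18.2% (436 and 449 cells, 9 mice) was chosen after seeing the data. There, 403 genes were called, and Dnmt1 was higher in the S-leaning cells (1.46 ± 0.20, adjusted p = 7.7e-05). Ezh2 (0.61 ± 0.20, adjusted p = 0.053), Kdm1a (-0.35 ± 0.22, adjusted p = 0.34), Hdac1 (0.01 ± 0.16, adjusted p = 0.98) and Hdac2 (0.00 ± 0.10, adjusted p = 0.99) did not pass. In the first split, Dnmt1 was under the filter on low counts. Without that filter it stood at 0.07 ± 0.48 there (adjusted p = 0.95 in edgeR's test).

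A few single cells held many UMIs of 1 of these genes, in 21 pairs of cell and gene with 20 or more UMIs. In mouse 7, 1 cycle-gene-poor neuroblast-like cell of 4573 UMIs held 85 of the 153 Ezh2 UMIs of its class. Without it the level of that mouse went from 295 to 132 CPM. Other such cells held 58 and 30 Ezh2 UMIs in mouse 9, 31 in mouse 4 and 22 in mouse 10, while any other cell held 8 at most.

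Kdm1a had 49 UMIs in 1 cell of mouse 9 and 33 in 1 cell of mouse 5, against at most 4 in any other cell. Hdac1 had 3 such cells and Hdac2 had 9. One unnamed cell of mouse 8 with 327 UMIs in all held 33 UMIs of Dnmt1. How such counts arose was not tested.

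Leaving out these cells, an alternative chosen after seeing the data, narrowed the spread of Ezh2 in neuroblast-like cells to 113 ± 23.5 CPM (range 79.7 to 149). In neuroblast-like against ganglion-like cells, Ezh2 then had a log2 fold change of 4.82 ± 0.29 (adjusted p = 2e-11) and Kdm1a of 1.11 ± 0.20 (adjusted p = 5.7e-05). Dnmt3a then passed as lower in neuroblast-like than in Schwann-like cells (-0.56 ± 0.22, adjusted p = 0.029). Between the cycle ranges, Kdm1a was at 0.19 ± 0.20 (adjusted p = 0.49) and Dnmt3a at -0.03 ± 0.17 (adjusted p = 0.99).

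**Figure D4:**
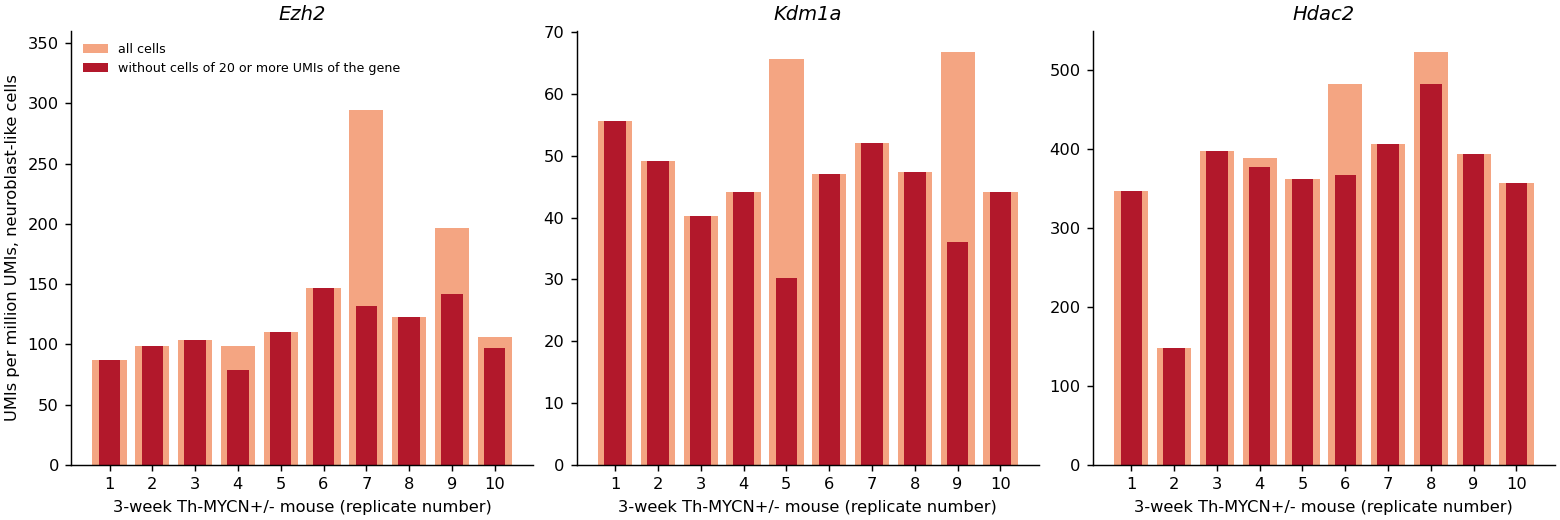
Levels in CPM (y axis, from 0) of Ezh2, Kdm1a and Hdac2 in neuroblast-like cells of each 3-week Th-MYCN+/- mouse (x axis, replicate number). Wide light bars count all cells and narrow dark bars leave out cells with 20 or more UMIs of that gene, and Ezh2 in mouse 7 goes from 295 to 132 CPM.

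The WT ganglion gave 38 neuroblast-like cells with 44290 UMIs, of which 29842 came from 1 cell. Ezh2 had 0 UMIs there, which allows up to 67.7 CPM. Eed, Suz12, Dnmt3b and Kdm1a also had 0 UMIs, Hdac2 had 6 and the others 1 or 2, so that levels in WT neuroblast-like cells were not measurable at this depth. In WT ganglion-like cells (88 cells, 276037 UMIs) all 10 genes lay within the range of the 3-week Th-MYCN+/- mice. Hdac2 there had 79.7 CPM (exact Poisson 95% interval 49.9 to 121) and Dnmt3a 54.3 CPM (30.4 to 89.6).

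In WT Schwann-like cells (344 cells, 233402 UMIs), Dnmt3a had 17.1 CPM (4.67 to 43.9), under the lowest 3-week Th-MYCN+/- mouse at 23.1 CPM, although the interval covers that value. The other 9 genes lay within the range of the Th-MYCN+/- mice. Hdac1 in WT endothelial-like cells had 1 UMI, 15.1 CPM (0.383 to 84.3), under the lowest mouse at 57.6 CPM. Intervals cover counting error only, and with 1 mouse a difference between genotypes cannot be told apart from a difference between mice.

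The 6-week ganglion with a tumor gave 249 neuroblast-like cells with 1778841 UMIs. All 10 genes lay within the range of the 10 3-week mice in these cells, but for Dnmt1, Hdac1 and Hdac2 the low end was mouse 2 with 0, 1 and 3 UMIs. Ezh2 had 101 CPM (86.4 to 116). Dnmt1 had 30.4 CPM (22.8 to 39.6), Hdac1 108 CPM (93.2 to 124) and Hdac2 337 CPM (310 to 365), below the other 9 mice, whose lowest values were 31.2, 133 and 346 CPM. Of these 3 intervals, that of Hdac1 does not reach the lowest of the 9 mice.

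The cycle ranges of the 6-week mouse were compared as well. Its cycle-gene-rich cells had 142 CPM of Ezh2 (107 to 183) and its cycle-gene-poor cells 54.4 CPM (39.2 to 73.5), so that these intervals did not overlap. Hdac2 had 258 CPM (223 to 296) in its cycle-gene-poor cells, where the 9 mice of 3 weeks ranged from 313 to 519 CPM.

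Against all 10 3-week mice, 2 values of the 6-week mouse lay outside the range in the 3 large classes, beside the 3 in neuroblast-like cells that did so without mouse 2. Dnmt3a in ganglion-like cells had 11.5 CPM (6.69 to 18.4), and the lowest 3-week mouse, mouse 2, had 13.4 CPM. Without mouse 2 the lowest was 21.5 CPM, above that interval. Hdac1 in Schwann-like cells had 79.6 CPM (56.6 to 109) and the lowest 3-week mouse 91.6 CPM. Both intervals cover the lowest value of all the 3-week mice.

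**Figure D5:**
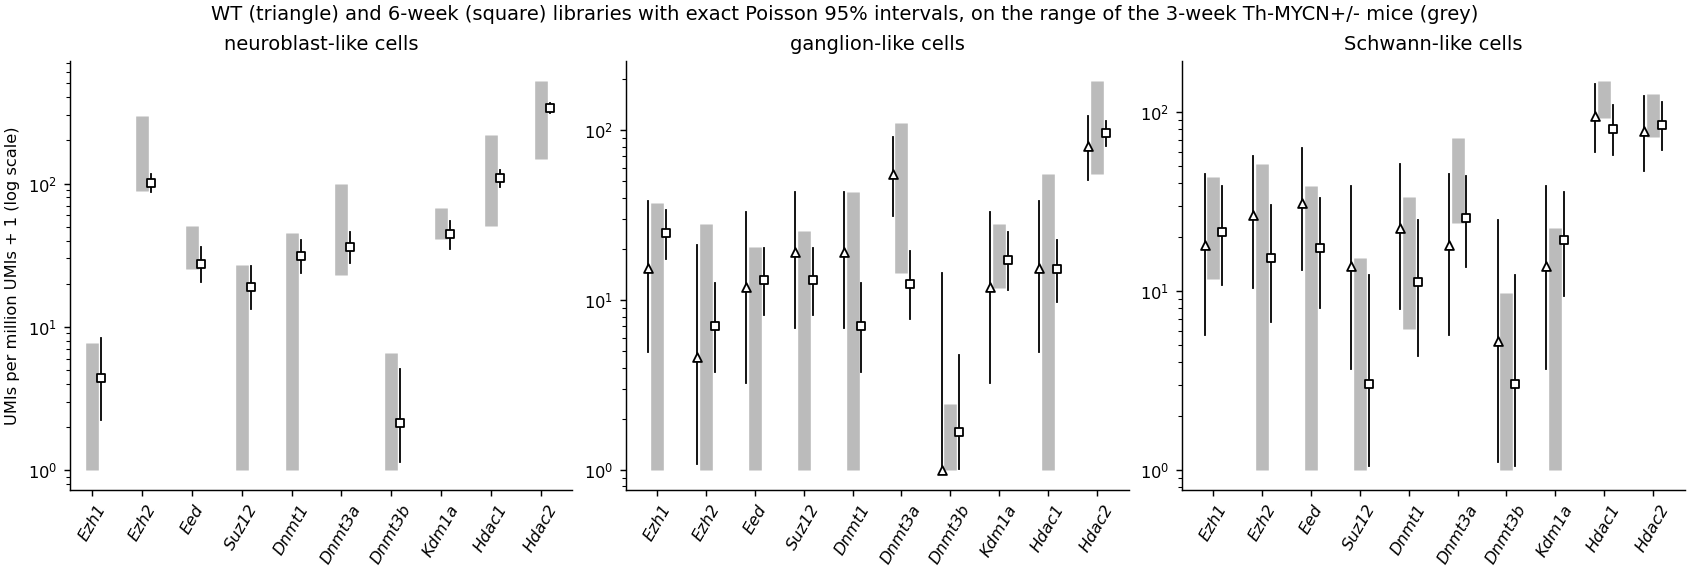
CPM plus 1 (y axis, log scale) of the 10 genes (x axis) in 3 classes. Grey bars span the 3-week Th-MYCN+/- mice, triangles are the WT mouse (ganglion-like and Schwann-like cells) and squares the 6-week mouse, with exact Poisson 95% intervals, and the 6-week value of Dnmt3a in ganglion-like cells, 11.5 CPM, lies under its grey bar.

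The other genes of these systems were followed in neuroblast-like against ganglion-like cells through lists of related genes. Their counts stand beside the 33.8% of all genes tested that were higher and the 33.7% that were lower, and a list near those shares does not stand apart. Of 10 further partners of Polycomb complex 2, 6 were tested, 4 were higher and 1 lower. Rbbp4, a histone-binding subunit shared with deacetylase complexes, had 189 ± 30.3 against 28.0 ± 8.78 CPM (2.64 ± 0.18, adjusted p = 1.4e-10), and Mtf2, which brings the complex to unmethylated CpG islands, had 73.2 ± 19.02 against 12.6 ± 9.61 CPM (2.45 ± 0.24, adjusted p = 1.5e-08). Phf1, an alternative partner of the same kind as Mtf2, was lower (-2.52 ± 0.29, adjusted p = 1.8e-07). The median over the 6 was 0.93.

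Of 21 genes of Polycomb complex 1, which ubiquitinates histone H2A, 13 were tested, 5 were higher and 3 lower (median 0.26). Kdm2b (2.36 ± 0.26, adjusted p = 9.2e-08), which binds CpG islands, and Phc1 (2.13 ± 0.39, adjusted p = 6.9e-05) led the higher ones. Cbx6, a reader of the mark, had 73.2 ± 27.2 against 217 ± 58.7 CPM (-1.63 ± 0.14, adjusted p = 3.6e-09), and Pcgf1 was also lower (-0.67 ± 0.20, adjusted p = 0.0054). Of 7 genes for removing Polycomb marks, 4 were tested and 2 were higher, Kdm6b (0.88 ± 0.28, adjusted p = 0.0099) and Asxl1 (0.75 ± 0.25, adjusted p = 0.012).

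Readers and cofactors of DNA methylation moved in both directions. Of 13 such genes, 7 were tested, 3 were higher and 2 lower (median 0.61). Trim28, a corepressor of zinc finger proteins, had 238 ± 40.5 against 41.3 ± 21.7 CPM (2.47 ± 0.18, adjusted p = 3.1e-10), and Mbd3, a subunit of the NuRD deacetylase complex, was higher too (1.68 ± 0.14, adjusted p = 1.5e-09). Zbtb4, which binds methylated DNA, had 4.64 ± 3.902 against 55.9 ± 33.1 CPM (-3.36 ± 0.29, adjusted p = 2.3e-09).

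Of 9 genes of DNA demethylation and repair, 6 were tested, 4 were higher and 1 lower (median 1.33). Tdg, the glycosylase that removes oxidized methylcytosine, was higher in 10 of 10 mice (1.88 ± 0.18, adjusted p = 1.4e-08), as was the repair scaffold Xrcc1 in 9 (1.78 ± 0.33, adjusted p = 8.3e-05). Gadd45g was lower (-1.83 ± 0.33, adjusted p = 5.4e-05).

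Of 16 other deacetylases and sirtuins, 11 were tested, 4 were higher and 3 lower (median -0.19). Sirt6 (1.74 ± 0.29, adjusted p = 2.2e-05) and Sirt4 (1.51 ± 0.28, adjusted p = 9.1e-05) were higher, while Hdac11 (-1.34 ± 0.24, adjusted p = 4.3e-05) and Sirt3 (-0.80 ± 0.18, adjusted p = 0.00069) were lower. Of 24 corepressor subunits, 21 were tested, 10 were higher and 4 lower (median 0.28). Rcor2, a partner of Kdm1a, had 66.1 ± 22.2 against 16.2 ± 11.6 CPM (2.57 ± 0.28, adjusted p = 9.5e-08), and Mta2 of NuRD was higher (1.98 ± 0.35, adjusted p = 4.3e-05). Chd3, also of NuRD, was lower (-1.17 ± 0.16, adjusted p = 1.4e-06).

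Of 9 histone acetyltransferases, the enzymes that oppose the deacetylases, 5 were tested, and Crebbp (0.87 ± 0.26, adjusted p = 0.0054) and Kat8 (0.70 ± 0.21, adjusted p = 0.0066) were higher. Of 4 genes that EZH2 is known to repress in neuroblastoma, 3 were tested and all 3 were lower, beside 33.7% of all genes tested. Ngfr, a neurotrophin receptor, had 39.6 ± 42.5 against 648 ± 135 CPM (-4.84 ± 0.39, adjusted p = 9.8e-10), and Clu had 9.81 ± 12.3 against 158 ± 84.1 CPM (-3.88 ± 0.37, adjusted p = 1.2e-08). Casz1 had 10.4 ± 6.76 against 53.7 ± 22.0 CPM (-2.15 ± 0.26, adjusted p = 3.8e-07). The filter on low counts shapes this count. Clu and Casz1 were low in neuroblast-like cells and could pass the filter through their ganglion-like UMIs. Genes kept in that way could hardly come out other than lower, so the count is a description only. Ngfr was also among the 10 leading genes of a ganglion-like cluster, so that its value describes that class. Against Schwann-like cells, where Ezh2 was also higher in neuroblast-like cells, only 1 of the 4 was tested and it was not called (0.28). Whether Ezh2 represses these genes here was not tested.

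Against Schwann-like cells, these lists gave 4 of 5 tested Polycomb complex 2 partners higher and 1 lower, and 5 of 8 DNA methylation cofactors higher and 0 lower, Uhrf1 and Hells among them, which guide or assist methylation during replication, beside 37.1% of all genes tested that were higher and 33.3% that were lower. Between the cycle ranges, 3 of 4 partners were higher and 0 lower, and of 7 cofactors 4 were higher, again with Uhrf1 and Hells, and 1 lower. Uhrf1 and Hells are on the published S list by which cells were sorted into these ranges, so their direction followed from the sorting. Of the corepressors, 4 of 19 tested were higher in cycle-gene-rich cells and 0 lower, beside 16.7% of all genes tested that were higher and 17.3% that were lower.

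Genes whose pattern was most like that of a member were found over 45 sums of 1 mouse and 1 class with at least 20000 UMIs, among 6584 genes. The sums of a mouse share a library and its depth, so the coefficients are descriptions. Ezh2 was most like Cdca8, Top2a and Lmnb1 (Pearson r of log2 CPM + 10 of 0.84 each). Hdac2 was most like Srsf3, Acat1 and Cct6a (0.88 each), and Dnmt1 like Gmps (0.70) and Hnrnpdl (0.69). Ezh1 was most like Avpi1, Map3k11 and Stat3 (0.66, 0.65 and 0.64), and Dnmt3a like Dcun1d5, Vps26a and Bcas3 (0.52, 0.50 and 0.50).

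Promoters of the 10 genes were searched for letters bound by E2F factors, which drive S phase genes, and for the E-box that MYC proteins bind. RefSeq gave 13 promoters for 9 of the genes (GRCm38.p6, 250 bases before to 50 after a start site), and Hdac1 had no entry. The E2F-type letters were TTTCCCGC, TTTGGCGC, TTTCGCGC, TTTGCCGC, TTCCCGCC and TTGGCGCC, on both strands. Of these, TTTGGCGC and TTGGCGCC can overlap by 7 bases. They stood in 3 of the 13 promoters (23.1%) and in 4.45% of all 32851. Dnmt1 and Dnmt3a each gave several of the 13. G and C made up 51.3% to 82.3% of the bases of these promoters, and the share over all promoters was not matched for that. Of the genes higher in cycle-gene-rich cells, Ezh2 and Dnmt1 had matches, Eed had 0 and Hdac1 had no entry. Suz12, which also had a match, was under the filter on low counts between the ranges. The E-box letters CACGTG, which read the same on both strands, stood in 1 of the 13 (7.69%) and in 7.15% of all. The windows that hold them are shown on the strand of the gene, with the matched letters in capitals, for Ezh2 (chr6:47595009-47595038, minus), Dnmt1 at the third of its start sites (chr9:20952824-20952853 and chr9:20952574-20952603, minus), Suz12 (chr11:79992876-79992905, plus) and Dnmt3a (chr12:3891652-3891681, plus).
Ezh2: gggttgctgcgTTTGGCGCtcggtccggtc
Dnmt1, upstream: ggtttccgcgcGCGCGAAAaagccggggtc
Dnmt1, downstream: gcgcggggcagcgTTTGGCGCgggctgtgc
Suz12: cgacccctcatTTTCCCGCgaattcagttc
Dnmt3a, E-box: tccagtggggccCACGTGacctggagttct

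The Ezh2 match lies at bases 3 to 10 after the start site, and the first Dnmt1 window holds the letters of the other strand. These matches describe letters only, and no binding was measured. Dnmt3a has a copy of a dispersed repeat in the last 500 bases of a transcript, with matches of up to 162 bases to 306 other genes, so its UMIs may be split or lost there. The other 9 genes had none of 100 bases or more.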

How the data were processed

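SMG cells from 12 mice were profiled by droplet scRNA-seq. Each deposited matrix holds raw UMI counts for all barcodes, which the authors made with Cell Ranger (3.0.2 per the file headers) on mm10 with the human transgene added, and which they did not normalize. Neither annotation release nor strand setting was stated. Libraries held 1147772 to 6388766 UMIs, which limits precision for sparse genes.

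Barcodes were called as cells by an EmptyDrops-type test (empty profile from barcodes with at most 100 UMIs, 10000 draws, FDR 0.01), with at least 200 genes, at most 10% mitochondrial and 60% ribosomal UMIs, giving 11428 cells. Scrublet marked 53 cells (0.464%) and was taken not to have worked, so doublets were kept. Clustering used Seurat 5.3.0 with sctransform 0.4.2 (2000 variable genes, of which 7 were left out as chromatin genes or transgene, 30 components, resolution 0.5) in R 4.3.3, and classes were named from marker lists. Numbers of genes and UMIs, mitochondrial and ribosomal shares and the S and G2M scores of each cell were regressed out before clustering. In the alternative with log-normalized counts they were not regressed out. The authors' cell annotation was not used here. Counts were summed per mouse and class, with at least 5 cells per sum, and tested with edgeR 4.0.16 (filterByExpr, TMM, quasi-likelihood, mouse as block, Benjamini-Hochberg over all genes tested).

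The block follows from the design, since both sums of a pair come from 1 library of 1 animal. The deviations of paired sums from their class means correlated at -0.00832 to 0.277 in neuroblast-like against ganglion-like cells and at 0.111 to 0.493 between the cycle ranges. P-values measure the spread between mice.

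The 10 genes and the lists were chosen with earlier results of these data known. Named genes are the 10, the 2 called genes with the largest change in each direction of each list in neuroblast-like against ganglion-like cells, and 3 genes of most similar pattern for 5 of the 10. Some genes that this rule names are not reported here. Casz1, Uhrf1 and Hells were named after their values were seen. Alternatives were DESeq2 1.42.0, RLE scaling, no filter, no block, at least 20 cells per sum, each mouse left out, subtraction of free RNA, stricter cells, other clusterings, removal of the top 5% of doublet scores and thinning. Levels have exact Poisson intervals at 95% where a group holds 1 mouse, and the limit for a count of 0 is that of 3 counts. Python 3.11.15 with numpy 2.4.6, scipy 1.17.1, pandas 2.3.3, scanpy 1.11.5 and matplotlib 3.10.9 was used for the rest. Protein sequences were not analysed here.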

Additional observations from a re-analysis of the deposited data

Results flagged for a closer look

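In 40 sets of 9 or 10 mice (the 10 genes in 4 classes), the highest or lowest mouse was compared with its nearest neighbour by Dixon's criterion. Normal values of equal precision pass it in about 1 of 20 sets. Values here rest on unequal and often few UMIs, so that rate does not hold for these sets. The criterion was passed in 8 of them.

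Of these, 4 were neuroblast-like values of mouse 2, which had 28 such cells: Dnmt1 at 0 CPM (nearest mouse 31.2), Dnmt3a at 98.4 CPM (2 UMIs, nearest 47.4), Hdac1 at 49.2 CPM (1 UMI, nearest 133) and Hdac2 at 148 CPM (3 UMIs, nearest 346). The summed level of 16 Schwann markers in neuroblast-like cells reached 19621 CPM in 1 mouse and was 163 CPM in the lowest, and its part in these values was not tested.

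Ezh2 in neuroblast-like cells of mouse 7 stood at 295 CPM (nearest mouse 197), where 1 cell held 85 of 153 UMIs. Ezh2 in ganglion-like cells of mouse 3 stood at 27.1 CPM, from 3 UMIs in 48 cells (nearest 6.01). In endothelial-like cells, Ezh2 of mouse 9 stood at 25.3 CPM, from 2 UMIs (nearest 12.4), and Hdac1 of mouse 7 at 249 CPM, from 6 UMIs (nearest 126).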

How the results depend on the processing

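In neuroblast-like against ganglion-like cells, 4854 genes were called, and leaving out each mouse gave 4319 to 5287, 4357 against Schwann-like cells (3985 to 4765), 2423 between ganglion-like and Schwann-like cells (2234 to 2904), 1793 between the cycle ranges (1513 to 1855) and 115 between S-rich and G2M-rich cells (90 to 120). Without the filter on low counts the counts were 7775, 7989, 6841, 2771 and 373, and calls of the 10 genes as lower became 1, 1, 3 and 1 in the first 4 comparisons. With cells thinned to 500 UMIs they were 827, 1526 and 633 between classes, with 1, 1 and 0 of the 10 genes higher, higher and lower, since few genes passed the filter. Thinned counts gave 535 between the cycle ranges (2 of the 10 higher) and 52 between S-rich and G2M-rich cells. The split at the median S share gave 403 and 1 of the 10 higher. Thinned levels in ganglion-like cells moved to 45.3 CPM for Dnmt1, 2.94 for Dnmt3b, 6.13 for Kdm1a and 58.3 for Hdac1.

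Without the replicate block, Suz12 passed as higher in neuroblast-like than ganglion-like cells (0.81), Dnmt3a as lower than in Schwann-like cells (-0.48, 1 of the 10 lower) and Ezh2 no longer between the cycle ranges (0.72), and the block changed no other call of the 10 genes. Leaving out cells with 20 or more UMIs of a gene also gave 1 of the 10 lower than in Schwann-like cells, and leaving out 1 mouse gave 0 to 1.

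Among the fitted log2 fold changes of the 10 genes, signs changed for values that did not pass. Of the called genes, Dnmt1 had its mean levels turned by thinning, as above, where it was under the filter on low counts and not tested. Against Schwann-like cells, Eed was at 0.0596 with DESeq2, 0.0639 with RLE scaling, 0.334 without the filter, 0.0463 at resolution 1.0, 0.00740 without the cells of many UMIs and -0.106 to 0.130 with a mouse left out, and Hdac1 at -0.0516 when thinned. Between ganglion-like and Schwann-like cells, Hdac2 was at -0.0890 with DESeq2, -0.0926 with RLE scaling, -0.104 with log-normalized clustering, -0.0603 at resolution 0.2, -0.0360 without the cells of many UMIs and -0.0873 to 0.136 with a mouse left out. Between the cycle ranges, without the cells of many UMIs, Dnmt3a was at -0.0301 and Kdm1a at 0.193, and with a mouse left out they ranged from -0.0207 to 0.285 and from -0.342 to 0.0586. Without the filter, Hdac1 was at -0.0665 and Hdac2 at -0.0665 between S-rich and G2M-rich cells. The causes were not tested. Sums of at least 20 cells left no fit between S-rich and G2M-rich cells. Depth limits Ezh1, Dnmt3b and Suz12, and all classes but the 3 largest.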
